A study of Mus musculus with 4 samples.

Results

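CTCF regions that lay inside protein-coding genes shorter than 200 kb, away from the gene ends, were described in cardiac myocytes of the mouse. A region was taken when its summit, the base with the highest read pileup, lay within the span of a protein-coding gene, when no protein-coding gene of 200 kb or longer covered it, and when it was more than 1 kb from both ends of every protein-coding and long non-coding RNA (lncRNA) gene. The control list held 6108 such regions among 20043, and the list from the library labelled CTCF knockout held 4902 among 16128, which together are 11010 of 36171. The lists came from ChIP-seq (sequencing of immunoprecipitated chromatin) with an Active Motif antibody to CTCF, in isolated cardiac myocytes of the left ventricle from mice of the C57BL/6 strain. The study had 1 CTCF library for the genotype control and 1 for the genotype CTCF_knockout, each made from myocytes of 3 pooled hearts. The sources used here do not give the allele, the driver of the deletion or the age of the animals, and the input libraries were not analysed here. There was 1 library per genotype and no replicate, so that genotypes could not be tested. Every comparison is between these 2 libraries or between sets of regions within them, and the 95% intervals cover counting error only. Since most regions of the control were called again in the second library, that library is named by its label throughout. CTCF regions do not measure expression, so the labelled cell type was not checked with marker genes.

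CTCF is a zinc-finger protein that binds a long, well conserved motif and stops cohesin as it extrudes DNA loops, so that bound sites often lie at the borders of loops. Within genes, bound CTCF is known for slowing RNA polymerase II, which can favour the inclusion of a nearby exon, and for joining alternative promoters to distal enhancers. A CTCF region inside a gene can thus lie in an intron or exon, or at a start used by a shorter transcript. Exons and introns were not analysed here. Gene spans and strands, and the starts of shorter transcripts, were taken from RefSeq tables of the GRCm38.p6 assembly, which is the assembly called mm10.

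The deposited lists gave sequence context at one kind of site, the starts of shorter transcripts, since 300-base promoter windows (250 bases before and 50 after a start) were at hand for these. In the control, 103 regions had their summit in 110 such windows, and 108 of the windows belonged to the gene that covered the region. A 12-base CTCF core motif (CCA, any 2 bases, AG, any 2 bases, GGC), searched on both strands, was found in 22 of the 110 windows (Wilson 95% interval 13.6% to 28.4%). It was found in 797 of all 32851 windows (2.43%) and in 1.90% of the windows without a control summit. Windows under summits within 1 kb of a gene end held it in 15.5%, and the difference of 4.48 percentage points from the windows inside genes had an interval from -2.31 to 13.1. A match says only that these letters are present. Of the regions, 19 had the core before the start, 10 times on the strand of the gene and 9 times on the opposite strand, and in 15 of the 19 the core's centre lay within 50 bp of the summit. The 5 strongest of these regions and 1 that was not called again are shown in the RefSeq sequence of GRCm38.p6, 5′ to 3′ on the strand of the gene and ending at or before the start, with the core in capitals.
Dennd6b, chr15:89196609-89196688, minus strand: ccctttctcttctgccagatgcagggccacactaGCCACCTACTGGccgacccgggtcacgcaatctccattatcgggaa
Pdzd9, chr7:120670303-120670382, minus strand: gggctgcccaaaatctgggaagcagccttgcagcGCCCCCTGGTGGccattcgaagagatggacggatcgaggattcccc
Noc3l, chr19:38819253-38819332, minus strand: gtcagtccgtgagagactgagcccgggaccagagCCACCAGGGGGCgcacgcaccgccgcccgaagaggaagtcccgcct
Csk, chr9:57645663-57645742, minus strand: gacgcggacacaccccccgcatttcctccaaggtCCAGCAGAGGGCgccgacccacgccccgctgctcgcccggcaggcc
Kcnk13, chr12:99964418-99964497, plus strand: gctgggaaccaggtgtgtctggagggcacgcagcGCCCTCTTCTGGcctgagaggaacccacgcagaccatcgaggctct
Slc29a1, chr17:45597236-45597315, minus strand: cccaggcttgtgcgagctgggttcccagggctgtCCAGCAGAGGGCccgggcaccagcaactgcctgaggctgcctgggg

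At these starts the pileup, the number of reads over the summit, could be set beside the letters. The region at an internal start of Dennd6b had 48 reads in the control and 37 in the library labelled knockout. That of Pdzd9 had 35 and 22 reads, and that of Noc3l, a ribosome biogenesis gene, 38 and 23. At Csk, the gene of a kinase that holds Src family kinases in check, the pileups were 28 and 23, and at Kcnk13, a potassium channel gene, 28 and 23. These 5 were chosen by their strength in the control. Other kept regions with the core had the higher pileup in the library labelled knockout, such as Dhx30 with 22 control reads and 25, and Otop2 with 23 and 28. The lowest local backgrounds were 1.006 reads in the control and 0.851 in the other library, a ratio of 0.846. Slc29a1, which encodes a nucleoside transporter, carried the same 12-base core as Csk (CCAGCAGAGGGC), which also stood in the regions of Dgkz and Dhx30. The Slc29a1 region had 9 control reads and was not called in the library labelled knockout, while those of Csk, Dgkz and Dhx30, with 28, 25 and 22 control reads, were called again. The core CCACCAGGGGGC stood in 4 regions (Pdzd9, Noc3l, Nabp2 and Bbc3), which were all called again. Over all windows, 19 of 75 with the summit of a region called in both libraries held the motif (25.3%, interval 16.9 to 36.2). Of 35 windows with a summit called in the control only, 3 held it (8.57%, interval 2.96 to 22.4). The difference was 16.8 percentage points (interval 0.561 to 29.0). It was not computed at like strength, and the 3 regions called in the control only that held the motif had 8 or 9 control reads. The 110 windows came from 103 regions, 72 called in both libraries and 31 in the control only. Some regions were thus counted more than once, so the interval of this difference is too narrow. A difference per region was not computed, so the windows do not resolve one.

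A control region overlapped by at least 1 bp in the list labelled knockout is called kept, and any other control region is called lost, which means that the second list has no call at that place. Of the 6108 control regions inside genes under 200 kb, 4221 were kept (69.1%, Wilson 95% interval 67.9 to 70.3) and 1887 were lost. Over all control regions 69.0% were kept, so that the share inside these genes was near that of the whole list. In the list labelled knockout, 683 of 4902 regions inside these genes overlapped no control region (13.9%, interval 12.99 to 14.9), against 14.2% of all regions of that list. The kept share ran from 61.1% on chromosome 18 to 77.0% on chromosome 2 over the 19 autosomes. On the X chromosome 33 of 61 were kept, where the median control pileup was 11 reads against 15 on the autosomes.

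The kept share inside genes under 200 kb lay between those of other positions. It was 61.4% inside genes of 200 kb or longer (1108 of 1806), 65.4% within 1 kb of a gene end (2860 of 4375) and 72.6% between genes (4841 of 6665). Regions inside genes under 200 kb were kept more often than those inside longer genes, by 7.76 percentage points (Newcombe interval 5.25 to 10.3), and 3.96 points remained at the same control fold enrichment (1.84 to 6.08). They were kept less often than regions between genes, by -3.53 points (-5.10 to -1.95), and more often than regions at gene ends, by 3.73 points (1.91 to 5.56). Matched on control fold enrichment, the last 2 differences were -2.57 points (-3.97 to -1.17) and 4.94 points (3.36 to 6.52). With a control pileup of at least 15 reads they were -0.0321 (interval -1.38 to 1.30) and 0.187 (-1.32 to 1.73), intervals that include no difference, and the difference from longer genes was 6.29 points (3.78 to 9.06). Genes under 200 kb held 10.9 control regions per Mb of their interior and 8.71 in the library labelled knockout. The interiors of longer genes held 4.37 and 3.27 per Mb, and the space between genes held 4.55 and 3.91. At kept regions the pileup in the library labelled knockout divided by that in the control had a median of 0.860 inside genes under 200 kb (quartiles 0.706 and 1.06). The median was 0.875 inside longer genes, 0.833 at gene ends and 0.892 between genes, and the quartiles of these 4 positions overlapped. The lowest local backgrounds of the 2 libraries had a ratio of 0.846. Read depth is unknown, so a change of signal at kept regions was not tested. The summits of the 2 libraries lay a median of 26 bp apart inside genes under 200 kb.

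**Figure D1:**
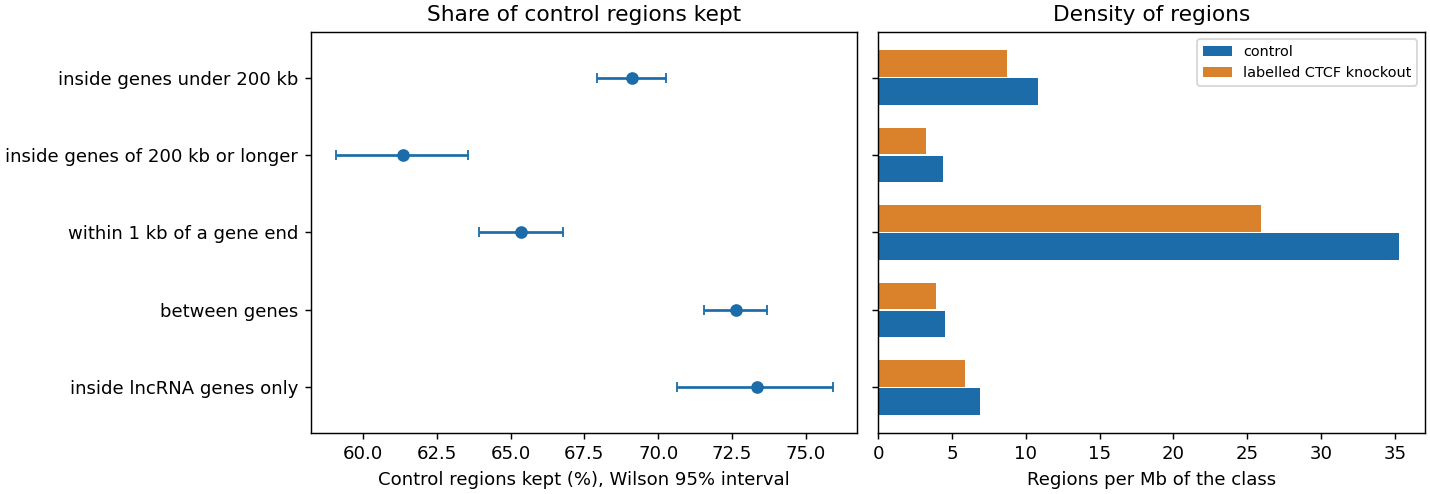
Share of control regions kept in the library labelled CTCF knockout, in percent with Wilson 95% intervals (left, the axis does not start at 0), and regions per Mb in the 2 libraries (right), by position relative to genes. Regions inside genes under 200 kb (69.1% kept) lie above those inside longer genes (61.4%) and below those between genes (72.6%), and their density is second to that of gene ends.

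Kept regions inside these genes were stronger than lost ones. Fold enrichment is the authors' ratio of the signal to the local background, after a small count is added to each. Its median was 8.01 in kept regions (interval 7.98 to 8.14) and 5.48 in lost ones (5.41 to 5.48). The median control pileup was 18 reads in kept and 11 reads in lost regions, and the median width was 256 bp and 173 bp. When all control regions were divided into 10 bins by fold enrichment, 171 of 590 regions inside these genes were kept in the weakest bin (29.0%) and 521 of 526 in the strongest (99.0%). The other positions showed such a rise as well. It went from 19.8% to 99.5% at gene ends, from 43.2% to 98.7% between genes and from 31.2% to 97.0% inside longer genes. In the list labelled knockout, regions without a control region had a median pileup of 10 reads and those with one had 15.

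**Figure D2:**
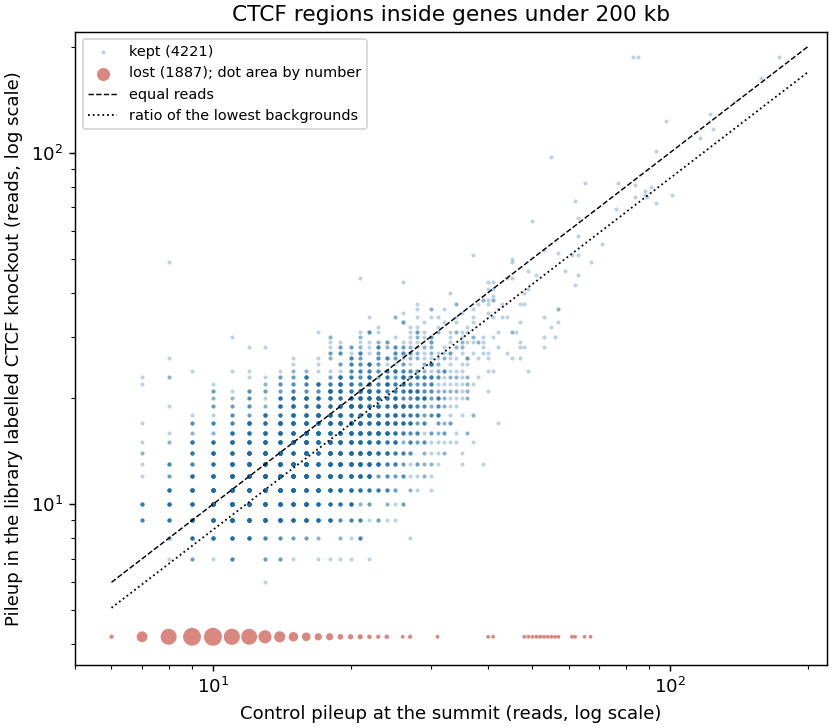
Pileup in the library labelled CTCF knockout against control pileup (reads, log scales) for the 4221 kept regions inside genes under 200 kb (blue). The 1887 lost regions (red) have no value in the second library and are drawn along the lower edge at their control pileup, with dot area by number; most lie near their median of 11 reads, and a smaller run of dots from 48 reads up includes 18 regions of Sfi1.

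Among the strongest kept regions, that in Col18a1, a basement membrane collagen gene (chromosome 10, 77130603 to 77130930), had 57 reads in the control and 36 in the library labelled knockout and lay 35.8 kb from the nearest gene end. A region in Rsad1 (chromosome 11, 94548818 to 94549431) had 62 and 42 reads, in the same order, with its summit 55 bp from an internal start of the same gene. Pick1, a PDZ domain scaffold gene, held a region with 56 and 30 reads, and Sec22c, a gene of vesicle transport, one with 63 and 58. The pileups were 51 and 45 in Niban2, 55 and 32 in 2900026A02Rik, 46 and 31 in Lingo1 and 59 and 46 in Ncs1, a neuronal calcium sensor gene. These regions were chosen by their strength in the control, so the order of their pileups says nothing about the libraries. Their summits in the 2 libraries were at most 54 bp apart.

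The strongest lost regions were weaker. The first, in Wnt5a (a secreted Wnt ligand; chromosome 14, 28507532 to 28507821), had a control pileup of 31 reads (exact Poisson interval 21.1 to 44.0, counting error only) and a fold enrichment of 15.2, rank 637 of the control list. The region in Mtarc2 (a mitochondrial reductase gene; chromosome 1, 184824583 to 184824884) had 27 reads, and that in Gpr161 (an orphan receptor of the primary cilium; chromosome 1, 165320630 to 165320875) had 24. A region in Arhgef2, the gene of a guanine nucleotide exchange factor, had 27 reads. The region in Cdc20b (chromosome 13, 113035997 to 113036203) had 24 reads and lay 1.14 kb from the nearest gene end, at 1.32% of the gene's length from its start. Pxdc1, Sytl4 (on the X chromosome) and Arhgap18 each held a lost region with 23 reads, and Kcnj9 (a potassium channel gene) and Fbln1 (fibulin 1, a matrix protein gene) one with 22 reads each. In these 10 regions the local background was between 1.01 and 1.29 reads, near the lowest of the library.

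Among regions called in the library labelled knockout only, the strongest lay in Tpm3 (a tropomyosin gene; chromosome 3, 90077505 to 90077703), Plxnd1 (a semaphorin receptor gene; chromosome 6, 115962409 to 115962708) and Gab1 (a signalling adaptor gene; chromosome 8, 80878788 to 80879038). Each had 20 reads and a fold enrichment of 11.3. Regions in Usp54 and Fcmr had 18 reads each. At the limits of the selection, the region in Atp9b, a gene of 199.9 kb, had 17 and 16 reads and was included, and that in Plcxd3, a gene of 200.1 kb, had 29 and 41 reads and was not. The region nearest to a gene end that was included lay 1002 bp from an end of Trim55 (13 and 18 reads), and the one just left out lay 998 bp from an end, within Fbxw8 (19 and 13 reads).

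Position along the gene went with the kept share. The strand of the covering gene was known for 4831 of the 6108 control regions, and these genes were divided into 5 equal parts from transcription start to end. In part 1, nearest to the start, 497 of 803 regions were kept (61.9%, interval 58.5 to 65.2). The share was 67.1% in part 2 (561 of 836), 69.0% in part 3 (642 of 930) and 71.7% in part 4 (804 of 1122). In part 5, at the gene's end, 847 of 1140 were kept (74.3%, interval 71.7 to 76.8). Part 5 minus part 1 was 12.4 percentage points (Newcombe interval 8.20 to 16.6). Regions in part 1 were weaker, with a median control pileup of 14 reads against 16 in part 5 and a median fold enrichment of 6.73 against 7.34. Matched on control fold enrichment, part 5 minus part 1 was 7.03 points (3.60 to 10.5), and part 5 had the higher kept share in 10 of 10 bins of fold enrichment. It was 9.45 points over genes with exactly 1 control region (3.40 to 15.5). A minimum of 5 for −log10 q left 5.55 points (0.879 to 10.3). The gap came to 2.52 points (-0.802 to 6.20) with a control pileup of at least 15 reads, so that it was not resolved among the deeper regions. The number of regions rose from 803 in part 1 to 1140 in part 5 in the control, and the list labelled knockout went from 588 to 964. In that list 89 of 588 regions in part 1 (15.1%) and 118 of 964 in part 5 (12.2%) overlapped no control region, and the difference of -2.90 points had an interval from -6.56 to 0.577. Inside genes of 200 kb or longer, part 5 minus part 1 was 7.53 points (0.0508 to 15.1). The 4.87-point gap between these 2 differences had an interval from -3.77 to 13.5, so the pattern was not shown to be particular to genes under 200 kb.

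**Figure D3:**
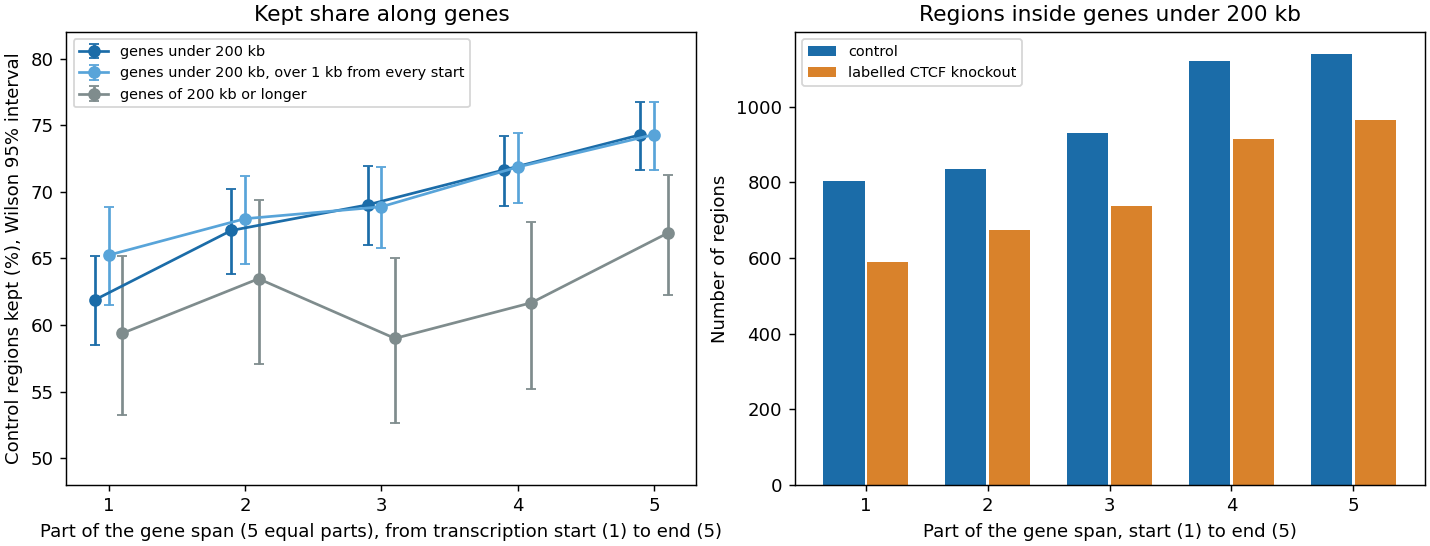
Share of control regions kept, in percent with Wilson 95% intervals (left, the axis does not start at 0), and number of regions in the 2 libraries (right), over 5 equal parts of the gene from transcription start (1) to end (5). The share in genes under 200 kb climbs from 61.9% to 74.3%, and from 65.3% to 74.3% where regions within 1 kb of any transcript start are left out (light blue); grey points are genes of 200 kb or longer.

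**Figure D4:**
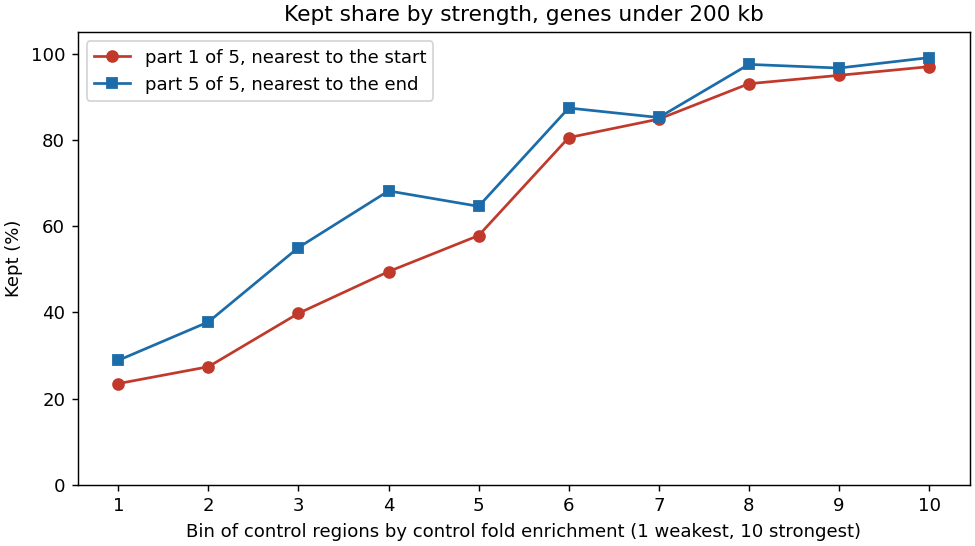
Kept share (percent) of control regions in the parts of genes under 200 kb nearest to the start (red circles, part 1) and to the end (blue squares, part 5), over 10 bins of control fold enrichment from weakest to strongest. The blue points lie above the red ones in each bin, with the widest gap, 18.7 points, in bin 4, and both near 100% in bin 10.

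Starts of shorter transcripts inside the genes went with a lower kept share. The nearest RefSeq start was taken whichever gene it belonged to, so it need not belong to the covering gene. Only the 4831 control regions whose gene had a known strand were counted. Within 1 kb of such a start 188 of 332 were kept (56.6%, interval 51.2 to 61.9), and 3163 of 4499 were kept farther away (70.3%, interval 69.0 to 71.6). The difference was -13.7 percentage points (-19.2 to -8.28), and it was -10.7 points at the same control fold enrichment (-14.8 to -6.50). By distance to the nearest start of any kind, the share was 58.3% up to 250 bp and 55.2% from there to 1 kb. It was 67.1% from 1 to 3 kb, 71.2% from 3 to 10 kb, 71.2% from 10 to 50 kb and 67.5% over 50 kb (284 of 421). Beyond 1 kb the nearest start can be the main start of the gene, as in Kcnj9 (2990 bp) and Pxdc1 (9570 bp). These farther bins thus do not measure distance to internal starts, and the share did not go on climbing in them. Compared with regions within 1 kb of a gene end, those near internal starts were kept less often, by -8.74 points (-14.3 to -3.33). They were also weaker, with a median control pileup of 13 reads against 15 farther away. With a control pileup of at least 15 reads the difference was -1.64 points (-7.54 to 2.35), and with a −log10 q of at least 5 in both lists it was -4.65 points (-11.2 to 1.39). Of the regions in part 1 of the gene, 20.8% lay within 1 kb of such a start, against 1.32% in part 5. Without these regions part 5 minus part 1 was 9.06 points (4.60 to 13.6). Among the lost regions named above, that of Cdc20b lay 733 bp from an internal start. A lost region in Cav1, which encodes caveolin 1 of the cell surface caveolae (chromosome 6, 17307413 to 17307748), lay 16 bp from one and had 21 control reads.

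Shorter genes less often held a region, and regions were denser in their interiors. Genes under 20 kb held 19.3 control regions per Mb of interior, and the density was 12.5 in genes of 20 to 50 kb, 9.63 in genes of 50 to 100 kb and 7.80 in genes of 100 to 200 kb. The share of genes with a control region went the other way, from 8.68% of genes under 20 kb to 54.9% of genes of 100 to 200 kb. The selection leaves the shortest genes no interior, and longer genes have more room for a region. The 11848 genes under 20 kb had 63.3 Mb of interior, and the 1439 genes of 100 to 200 kb had 187 Mb. The kept share was 69.3% under 20 kb (845 of 1220), 72.9% from 20 to 50 kb (1329 of 1823), 67.4% from 50 to 100 kb (1081 of 1605) and 66.2% from 100 to 200 kb (966 of 1460). The longest minus the shortest bin was -3.10 points (-6.63 to 0.462), an interval that includes no difference. With a −log10 q of at least 5 in both lists it was -4.999 points (-8.94 to -1.01). Of the control regions, 6041 were covered by 1 protein-coding gene, and 236 also lay within an lncRNA gene, where 171 were kept (72.5%, interval 66.4 to 77.8).

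Per gene, 4244 of 20897 protein-coding genes under 200 kb held a control region of this kind, 2974 of them exactly 1. Of the 1270 genes with 2 or more, 524 had all regions kept, 85 had none kept and 661 (52.0%, interval 49.3 to 54.8) held both kept and lost regions. The share of such mixed genes to be expected from the overall kept share was not computed, so this count does not show a trait of these genes. Myo18a, an unconventional myosin gene (chromosome 11, 77763240 to 77865988), held 9 regions with fold enrichments from 4.66 to 11.2, of which 5 were kept. The 4 lost ones had 10, 11, 20 and 13 control reads, and the kept ones had 18, 18, 26, 15 and 28. Capzb, the gene of an actin capping subunit that sits at the Z-disc of muscle (chromosome 4, 139192899 to 139291820), held 7 regions of which 5 were kept. Its lost regions had 12 and 7 reads, and its kept ones had between 12 and 28. In 2900026A02Rik 5 of 7 were kept. In Trak1, a gene of mitochondrial transport along microtubules (chromosome 9, 121297502 to 121474919), 3 of 7 were kept. Dapk1, a death-associated kinase gene, also held 7, with 6 kept. Sfi1, a gene of the centrosome (chromosome 11, 3131850 to 3203347), stood apart with 20 control regions, of which 2 were kept. Its regions had pileups from 48 to 89 reads over local backgrounds from 20.5 to 33.99 reads, and fold enrichments from 1.92 to 2.81, where most regions had backgrounds near 1 read. In the library labelled knockout Sfi1 held 3 regions. Tmem267, named after its values were seen, had a still higher background (median 38.5 reads, against 23.3 in Sfi1). It held 7 control regions, all 7 kept, with 10 regions in the other list. Without these 2 genes the kept share over all regions inside genes under 200 kb was 69.3%.

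Gene lists of heart muscle and of chromatin, signalling and other cell types were used to give the regions by function. In all, 657 listed genes were under 200 kb, 210 of them held a control region, and 224 of 343 regions were kept (65.3%, interval 60.1 to 70.1). Lists shared some genes, such as Gata4 and Synpo2, and a region of a shared gene was counted in each of its lists. Inside sarcomere and Z-disc genes 23 of 34 were kept (67.6%, interval 50.8 to 80.9), and 15 of 34 where a reciprocal overlap of 50% was required (44.1%, interval 28.9 to 60.5). That stricter overlap also lowered the share over all listed genes and over all regions inside genes under 200 kb, so the drop was not particular to this list. The strongest kept region in sarcomere and Z-disc genes lay in Tpm1, the tropomyosin gene of the cardiac thin filament (24 and 12 reads). The strongest lost one lay in Actn2, the gene of the Z-disc crosslinker alpha-actinin 2 (15 control reads). For calcium handling and channel genes the count was 18 of 32 kept (56.3%, interval 39.3 to 71.8). The strongest lost region among them lay in Trpm4, a calcium-activated cation channel gene (13 reads). For genes of energy metabolism, mostly of fatty acids, it was 21 of 30 (70.0%, interval 52.1 to 83.3). Mlycd, the gene of malonyl-CoA decarboxylase, held a kept region with 29 and 22 reads, and Eci1, a gene of fatty acid oxidation, a lost one with 17 reads. Inside stress, growth and fetal genes 12 of 23 were kept (52.2%, interval 33.0 to 70.8), with a kept region in Lif, a cytokine gene, that had 33 and 40 reads.

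Inside genes of cardiac transcription factors 13 of 28 regions were kept (46.4%, interval 29.5 to 64.2), which was the 1 of 14 lists whose interval did not include the 69.1% of all regions inside genes under 200 kb. Hey1, a Notch target repressor gene, held a kept region with 36 and 23 reads, and Gata4, a zinc-finger activator of cardiac genes, held 2 regions that were both lost, the stronger with 16 reads. The regions of this list were weak, with a median fold enrichment of 5.71 against 6.98 over all regions inside genes under 200 kb. The difference from the other regions was -22.8 points (-39.7 to -4.98), and at the same control fold enrichment it was -9.41 points (-23.8 to 4.997). A low share near genes of cardiac transcription factors had been seen in these data before the list was made, so the count is not independent evidence.

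Inside genes of CTCF, cohesin and chromatin regulators 28 of 46 regions were kept (60.9%, interval 46.5 to 73.6). Maz, the gene of a zinc-finger factor, held the strongest lost one (16 reads). Inside splicing regulator genes 6 of 13 were kept (46.2%, interval 23.2 to 70.9), with a kept region in Mbnl2 (25 and 17 reads) and a lost one in Tra2a (14 reads). Inside signalling genes of the Wnt, Notch, TGF-beta and Hippo pathways 29 of 42 were kept (69.0%, interval 54.0 to 80.9), and Smad6, an inhibitory Smad gene, held a kept one with 34 and 23 reads. In imprinted genes 19 of 27 were kept (70.4%, interval 51.5 to 84.1). Osbpl5 held a kept region with 48 and 28 reads and Slc22a3, an organic cation transporter gene, a lost one with 12. Among genes marking other cell types of the heart, 21 of 25 regions inside fibroblast genes were kept (84.0%, interval 65.3 to 93.6), as in Gsn (34 and 24 reads). In endothelial genes 20 of 28 were kept (71.4%), the strongest in Mmrn2 (53 and 28 reads), with Cav1 lost. In smooth muscle and pericyte genes 13 of 16 were kept (81.3%), as in Smtn (31 and 23 reads), with a lost region in Synpo2 (13 reads). Synpo2 held 5 of these 16 regions, 4 of them kept, and also stood in the sarcomere and Z-disc list. In immune genes 5 of 5 were kept (interval 56.6 to 100), in Mrc1, Fcgr1, Lcp1, Runx3 and Spi1. These 5 regions were strong, with a median fold enrichment of 13.7 against 6.98 over all regions inside genes under 200 kb. In housekeeping genes 3 of 4 were kept, as in Actb (38 and 26 reads), and the one in Gusb (11 reads) was lost.

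**Figure D5:**
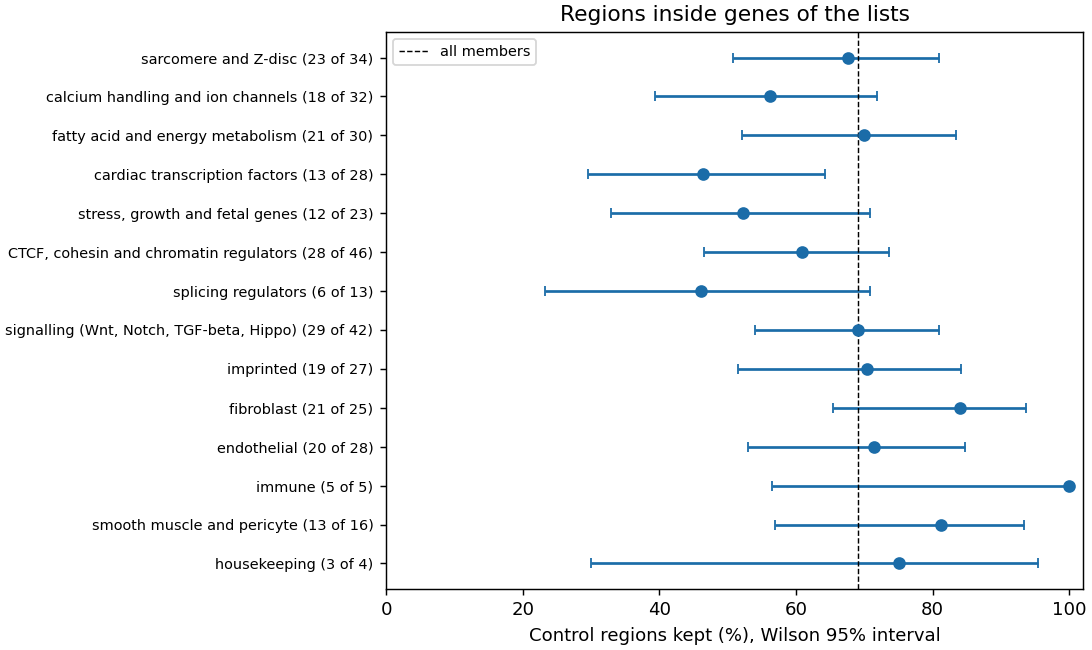
Share of control regions kept (percent, points, with Wilson 95% intervals) inside genes of the 14 lists, with the number kept of all in brackets; the dashed line is the share over all regions inside genes under 200 kb, 69.1%. The intervals are wide, and 13 of 14 include the dashed line.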

How the data were processed

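The submitters' processing notes name MACS2, SAMtools 0.1.19, Bowtie2 2.2.6 and the build mm10, and the sources used here do not give the version of MACS2, its threshold or its treatment of duplicates. The authors deposited 1 list per ChIP library. Each deposited region has a fold enrichment (a ratio to the local background), a −log10 p, a −log10 q and a score (10 times −log10 q, rounded down), with a start, end and summit. Read depth is unknown. Pileup and background were solved from fold enrichment and −log10 p as MACS2 computes them, and a whole pileup gave the −log10 p within 0.001 in 100% of regions. In that fold enrichment, 1 is added to both the pileup and the background before they are divided. Pileups inside genes under 200 kb were 6 to 173 reads (control) and 6 to 187 reads (labelled knockout).

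Regions were classed by summit against RefSeq genes of GRCm38.p6 on chromosomes 1 to 19, X and Y, and the lists were overlapped. Shares have Wilson and differences Newcombe 95% intervals. Differences at the same fold enrichment are means over 10 bins with normal intervals, and medians have binomial order-statistic intervals. Length and position refer to the longest covering protein-coding gene. Strand came from the promoter table, which had an entry for the covering gene of 4831 control regions. A motif search over all regions was planned and not run, since sequence was used only for promoter windows. The overlap, class, pileup and interval steps were checked on simulated data.

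The selection and the gene lists were chosen with earlier results of these data known. Of 752 list entries 7 could not be matched. Named regions followed a written rule: the 10 strongest kept and lost, the 5 strongest called in the library labelled knockout only, the 5 genes with most control regions (ties by the sum of fold enrichment, with the tied Dapk1 and Tmem267 added after their values were seen), and up to 2 genes per list. Some regions that the rule names are not reported here. Regions at internal starts and those shown with sequence were added after the data were examined. The software was matplotlib 3.10.9, scipy 1.17.1, pandas 2.3.3 and numpy 2.4.6 under Python 3.11.15.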

Additional observations from a re-analysis of the deposited data

How the results depend on the processing

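No paired analysis was possible because a single library stood for either genotype. The other settings set a minimum of 5 for −log10 q or for fold enrichment, a minimum reciprocal overlap of 50%, a maximum of 100 bp between summits, lists cut to equal length, other distances from gene ends and a minimum control pileup of 15 reads. The cause of the shifts was not tested. Against 69.1% kept, these gave 71.5% with the −log10 q, 71.7% with the fold threshold, 59.7% under reciprocal overlap, 65.4% by summit distance, 77.8% with equal lists and 90.97% with the pileup minimum. In the order just given, the first 5 settings put the regions of the second list that overlapped no control region at 16.1%, 16.8%, 25.6%, 18.4% and 21.2%, and 5 kb from gene ends gave 15.2%, against 13.9%. The difference from gene ends was 0.333 points with the −log10 q, 1.60 with the fold threshold, 0.772 at 5 kb and 0.187 with the pileup minimum, against 3.73. The difference from regions between genes was -1.70 at 5 kb and -0.0321 with the pileup minimum, against -3.53. The longest minus the shortest gene bin was -4.999 with the −log10 q and -3.83 with the fold threshold, against -3.10. Part 5 minus part 1 of the gene was 2.52 with the pileup minimum, against 12.4. The difference at internal starts was -4.65 with the −log10 q and -1.64 with the pileup minimum, against -13.7. Kept minus lost median fold enrichment was 1.90 and 2.15 with the −log10 q and fold thresholds, against 2.52. Genes with both kept and lost regions were 45.9%, 46.4%, 59.7% and 57.4% under the first 4 settings, against 52.0%. The kept share over all listed genes was 54.5% with reciprocal overlap, against 65.3%. With the looser motif (CC, any 3 bases, AG, any 2 bases, GGC), chosen after the data were examined like the settings at internal starts and the pileup minimum for position along the gene, 45.5% of windows under these summits held it, against 8.61% of all windows. No result changed direction, and with the pileup minimum the difference from longer genes kept an interval without 0.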
